A study of Neurospora crassa with 4 samples.

Results

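The response of wild-type *Neurospora crassa* to staurosporine was read from a pair of RNA-seq libraries, 1 of staurosporine-treated cells and 1 of cells that received the solvent DMSO. A gene was counted as measured where its FPKM was at least 1 in either library, which held for 7467 of the 9691 genes listed. FPKM counts sequenced fragments relative to transcript length and to the size of the library, so that levels can be compared between genes. The change of a gene is the difference of log2(FPKM + 1), staurosporine minus DMSO, a scale on which 1 is a 2-fold change and the change of weakly expressed genes is understated. Conidia of the wild type were grown in minimal medium for 6 h at 26 °C in constant light and then kept for 1 h with 20 μM staurosporine or with DMSO. A deletion strain, Δ*czt-1*, was treated in the same way, and its 2 libraries are used below only for side-by-side values. With 1 library per condition, no difference has a replicate check and no test was run, so genes were counted by the size of the change.

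Staurosporine is an alkaloid that inhibits protein kinases broadly by occupying their ATP-binding site, and in *N. crassa* it is used to trigger a form of programmed cell death. *N. crassa* is a filamentous fungus whose asexual spores, the conidia, germinate into tubes and fuse into a network of hyphae within hours. *czt-1* encodes a zinc-cluster transcription factor, the class of regulator that in fungi commonly controls drug efflux and metabolic genes, and *abc3* encodes a membrane pump of the ABC family that exports drugs. The genes of the ribosome, the respiratory complexes and the endoplasmic reticulum are left aside here, and the other functions named in the Broad gene descriptions are described through 56 lists of words.

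Of the measured genes, 1007 (13.5%) were at least 2-fold higher and 1108 (14.8%) were at least 2-fold lower with staurosporine, 28.3% in all, while 3600 genes (48.2%) differed by less than 1.5-fold. A further step of size left 50 genes at least 8-fold higher and 55 at least 8-fold lower. The FPKM of all genes summed to 570298 with staurosporine and to 1072129 with DMSO, and the balance of directions rests on this difference. When each library was rescaled to an equal sum, 3426 genes were higher and 360 lower, so that 90.5% of the changed genes were higher and 9.51% lower, against 47.6% and 52.4% as deposited, and the median gene, at 0.11 as deposited, stood at 0.91. For this reason the lists are set against the median gene, a comparison that the scaling hardly moves. The share of lower genes was larger at high than at low expression. Among the 159 genes with a mean FPKM of at least 1000 in the 2 libraries, 117 (73.6%) were at least 2-fold lower and 5 (3.14%) at least 2-fold higher. Among the 1581 genes with a mean FPKM between 3 and 10, 128 (8.10%) were lower and 289 (18.3%) higher. These counts cover all measured genes, including the ribosome, respiratory and endoplasmic reticulum genes set aside above. The paper reports ribosomal protein genes as enriched among the repressed genes, and how many of them stood at these levels was not counted.

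Read totals of the libraries were not among the sources used here. The lowest FPKM values, multiplied by the gene span of the NC12 annotation, piled up at 0.105 with staurosporine and at 0.055 with DMSO (bins 0.01 wide), which would be the worth of a single read. By this estimate a gene of the median span, 2.39 kb including introns, had about 228 reads behind an FPKM of 10 with staurosporine, against about 435 with DMSO. At an FPKM of 1 the same gene had about 22.8 reads with staurosporine and 43.5 with DMSO, so the staurosporine library was the shallower. Whole reads could not be recovered, because the transcript lengths used by the authors are not in the tables.

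The stage of the culture was read from genes of growth and sporulation. Actin stood at 1641 FPKM with staurosporine and 1591 FPKM with DMSO, and beta-tubulin at 782 FPKM with staurosporine and 942 FPKM with DMSO. These cytoskeletal genes were nearly level in the pair, whereas translation elongation factor 1-alpha, *tef-1*, had 10116 FPKM with staurosporine, against 22464 FPKM with DMSO. Genes that mark conidia stood far below these in both libraries: *con-10* had 8.14 FPKM with staurosporine, against 1.26 FPKM with DMSO, and the spore-coat gene *eas*, which encodes the rodlet protein, had 44.9 FPKM with staurosporine, against 20.5 FPKM with DMSO. Pheromone precursors told the strains apart. *mfa-1*, made by cells of one mating type, stood at 4.32 FPKM with staurosporine and 3.72 FPKM with DMSO in the wild type, and at 2367 and 703 FPKM with staurosporine and with DMSO in Δ*czt-1*. *ccg-4*, the precursor of the opposite mating type, stood at 6.39 FPKM with staurosporine and 3.83 FPKM with DMSO in the wild type and at 0.0847 and 0.115 FPKM in Δ*czt-1*. The strains set side by side below therefore differed in mating-type gene expression as well as in *czt-1*, and its part in their differences cannot be told apart from that of the deletion.

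The largest rise of all measured genes was that of *abc3* (NCU09975), described as multidrug resistance protein 3, with 798 FPKM with staurosporine, against 6.79 FPKM with DMSO (change 6.68). The regulator *czt-1* itself (NCU09974) had 384 FPKM with staurosporine, against 19.7 FPKM with DMSO (change 4.22). In Δ*czt-1*, *abc3* had 12.99 FPKM with staurosporine, against 13.36 FPKM with DMSO, and the deleted *czt-1* had 1.54 and 2.26 FPKM. These genes are neighbours in the NC12 annotation. The next gene beyond *abc3*, NCU09976, a rhamnogalacturonan acetylesterase of the plant cell wall group, had 9.47 FPKM with staurosporine, against 0.126 FPKM with DMSO in the wild type, and 0.308 and 0.459 FPKM with staurosporine and with DMSO in Δ*czt-1*. It lies below the level required for naming and was singled out after its values were seen. The gene after it, NCU09977, was listed at 0 with staurosporine and had 0.207 FPKM with DMSO. On the other side of *czt-1*, NCU09973 had 13.7 FPKM with staurosporine, against 7.88 FPKM with DMSO in the wild type (change 0.73), and the gene beyond it, NCU09972, had 97.9 FPKM with staurosporine, against 56.1 FPKM with DMSO (change 0.79). Both were under 2-fold but above the 75th percentile of all changes, 0.66.

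**Figure D1:**
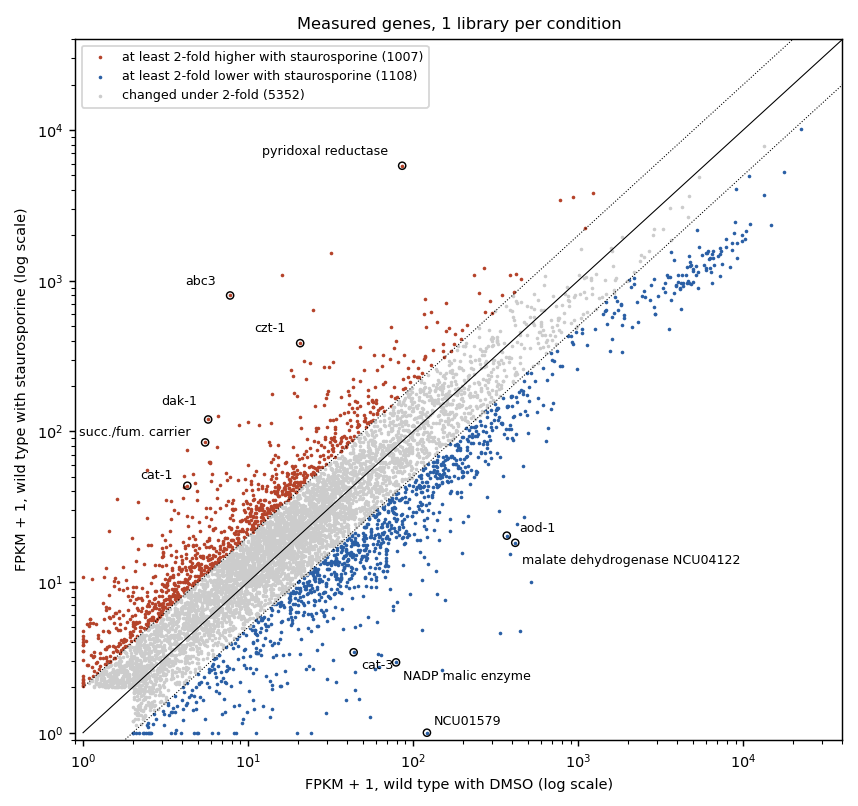
Scatter plot of the 7467 measured genes, with FPKM + 1 in staurosporine-treated wild-type cells on the vertical axis and in DMSO-treated wild-type cells on the horizontal axis, both on log scales. Red points are the 1007 genes at least 2-fold higher with staurosporine, blue points the 1108 at least 2-fold lower, the solid line marks equal levels, the dotted lines a 2-fold ratio, and the most expressed genes form a blue arm below the line.

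Other large rises belonged to enzymes and carriers of quite different roles. A pyridoxal reductase (NCU09141), an enzyme of vitamin B6 metabolism, reached 5802 FPKM with staurosporine, against 84.9 FPKM with DMSO (change 6.08), a level above that of actin. Dihydroxyacetone kinase, which feeds the product of glycerol oxidation into glycolysis, had 119 FPKM with staurosporine, against 4.73 FPKM with DMSO. Cytochrome P450 52A11 (NCU09115), named after a family that in *Candida* yeasts hydroxylates alkanes and fatty acids, had 126 FPKM with staurosporine, against 5.56 FPKM with DMSO. The L-fucose permease NCU05897, a sugar carrier, had 74.0 FPKM with staurosporine, against 3.24 FPKM with DMSO. All of these were under 6 FPKM with DMSO except the reductase. The endochitinase NCU04554, which cleaves chitin of the fungal wall, had 254 FPKM with staurosporine, against 17.2 FPKM with DMSO. An Na or K P-type ATPase (NCU08147), a cation pump of the plasma membrane class, had 109 FPKM with staurosporine, against 7.86 FPKM with DMSO. The blue-light-induced gene *bli-3* had 176 FPKM with staurosporine, against 12.98 FPKM with DMSO. Further members of the 15 largest rises were an aldehyde dehydrogenase (NCU03415, change 3.58), a gene described as norsolorinic acid reductase (NCU07723, 3.62), the Cut9 interacting protein (NCU05309, 3.53) and the rubredoxin-NAD(+) reductase NCU05850 (3.48).

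The largest falls among described genes belonged to genes of varied roles. An NADP-dependent malic enzyme (NCU03651), which makes pyruvate and NADPH from malate, had 1.93 FPKM with staurosporine, against 77.9 FPKM with DMSO (change -4.75). A malate dehydrogenase (NCU04122), which interconverts malate and oxaloacetate, had 17.2 FPKM with staurosporine, against 415 FPKM with DMSO (change -4.51). The alternative oxidase *aod-1*, a bypass of the respiratory chain, had 19.3 FPKM with staurosporine, against 369 FPKM with DMSO. Each of these was at least 16-fold lower on the scale used. Pyruvate decarboxylase (*cfp*, NCU02193), the first step of alcoholic fermentation, had 23.5 FPKM with staurosporine, against 428 FPKM with DMSO. In Δ*czt-1* the same gene had 41.5 FPKM with staurosporine and 30.7 FPKM with DMSO, so it was low there in both libraries. Flavohemoglobin NCU10051, a nitric oxide dioxygenase, had 25.9 FPKM with staurosporine, against 470.2 FPKM with DMSO. Outside metabolism, the plasma membrane fusion protein *prm-1*, which acts when cells merge, had 4.84 FPKM with staurosporine, against 52.0 FPKM with DMSO. The anchored cell wall protein *acw-10* had 26.4 FPKM with staurosporine, against 213 FPKM with DMSO. The rest of the 15 largest falls comprised *cat-3* (change -3.67), a 5'-methylthioadenosine phosphorylase (NCU03963, -3.67), UDP-glucose dehydrogenase (NCU08228, -3.49), glycerol kinase (NCU06005, -3.20), lectin 2b (NCU05651, -3.13), dimethylaniline monooxygenase (NCU10387, -3.09), a mitochondrial carrier (NCU03561, -2.97) and a carbonic anhydrase (NCU05653, -2.96).

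Near-complete switches were rare and fell mostly on genes without a specific description. Of all measured genes, 55.7% had such a description. In 5 genes an FPKM under 1 with DMSO stood against at least 10 with staurosporine, and none of the 5 had a specific description. The highest of them, NCU10092, had 34.8 FPKM with staurosporine, against 0.599 FPKM with DMSO, and in Δ*czt-1* it had 1.34 and 2.03 FPKM with staurosporine and with DMSO. In 13 genes the pattern was the reverse, and only the purine nucleoside permease NCU08178, a nucleoside carrier, had a specific description, with 0.940 FPKM with staurosporine, against 12.9 FPKM with DMSO. NCU01579, a hypothetical protein, was listed at 0 with staurosporine and at 120.4 FPKM with DMSO. These 3 genes were picked out after their values were seen.

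Of the 56 lists, 35 had a median above that of all measured genes and 21 a median below it. The counts of list members below stand beside 13.5% of all measured genes at least 2-fold higher and 14.8% at least 2-fold lower. The highest medians were those of fatty acid synthesis (1.08), of fermentation, acetate and propionate use (0.89), of conidiation and developmental genes (0.87), of fatty acid oxidation (0.84) and of autophagy (0.82). The lowest were those of mitochondrial protein import and folding (-1.52), of translation factors (-0.95), of catalases, peroxidases and superoxide dismutases (-0.78), of mitochondrial carriers (-0.75) and of nucleotide synthesis (-0.53). After rescaling to an equal FPKM sum, only the medians of mitochondrial import (-0.64) and of translation factors (-0.05) stayed below 0, so the word lower below refers to the libraries as deposited or to the median gene. Since the lists were built from words in the descriptions, they hold some genes of uncertain role, and members of multigene families share similar sequence that the mapping may have divided between them.

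**Figure D2:**
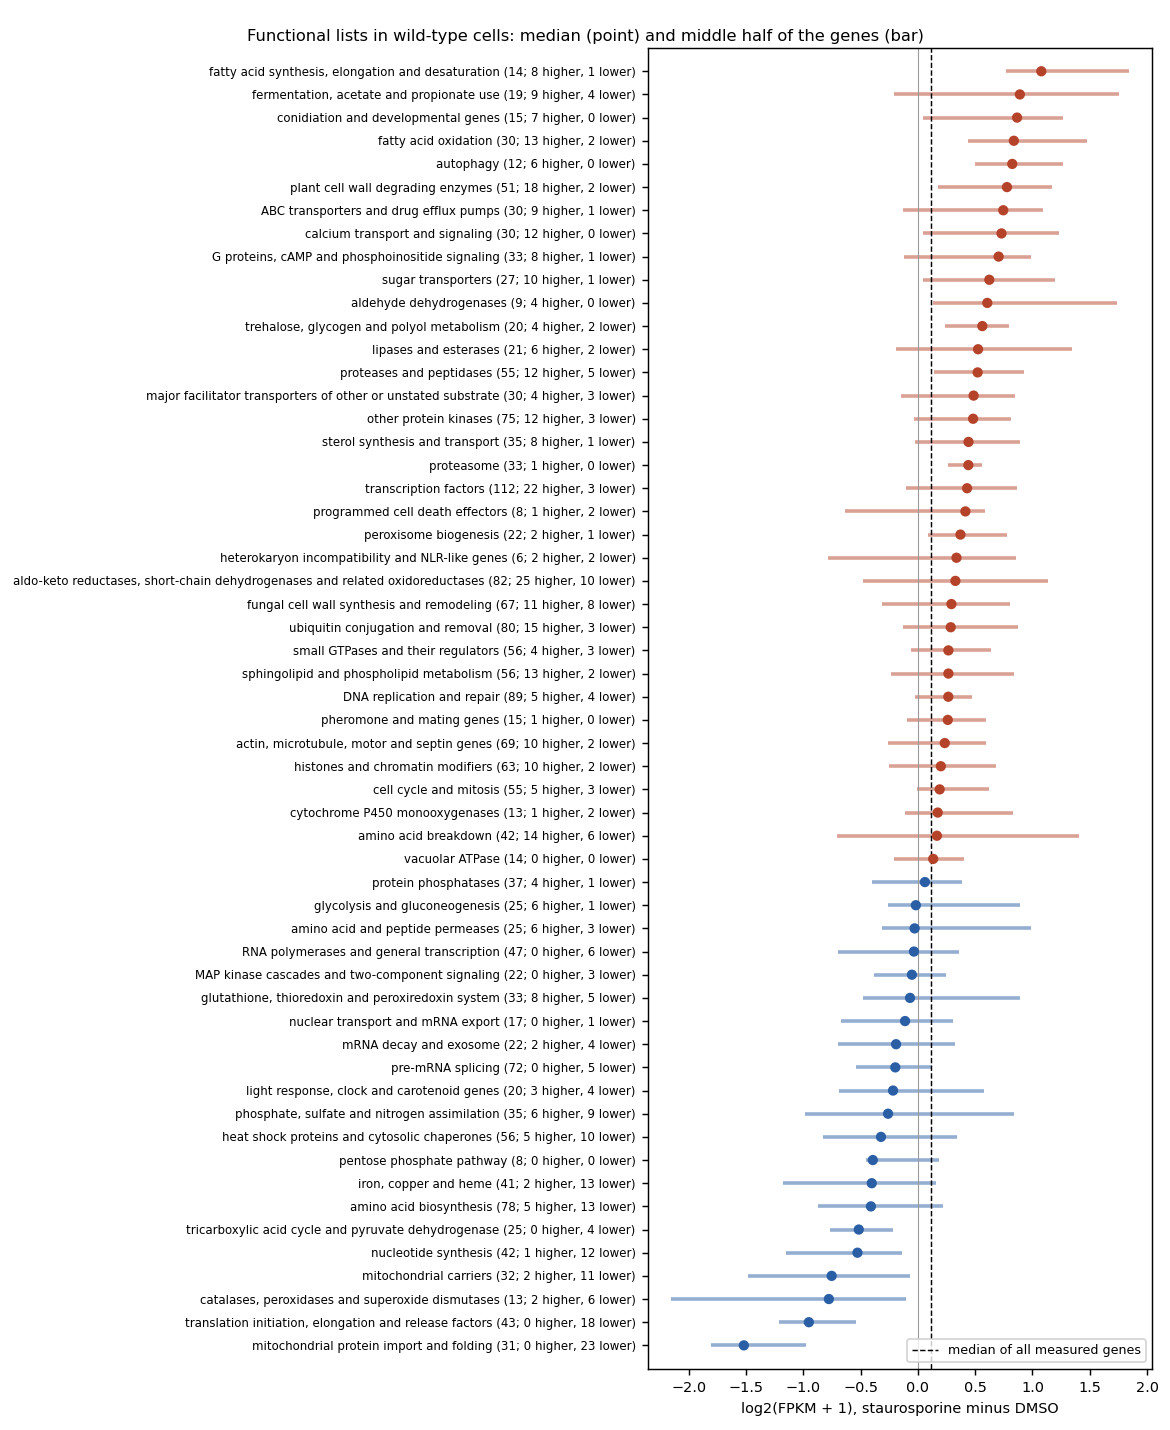
Change of each of the 56 functional lists in wild-type cells, as log2(FPKM + 1) with staurosporine minus DMSO on the horizontal axis, where the point is the median over the measured genes of the list and the bar is their interquartile range. Each label gives the number of measured genes and how many were at least 2-fold higher and lower, red marks medians above that of all measured genes (dashed line, 0.11) and blue those below it, from 1.08 for fatty acid synthesis at the top to -1.52 for mitochondrial protein import at the bottom.

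The lists of fatty acid synthesis and of fatty acid oxidation both had medians above that of all measured genes. Fatty acids are built in the cytosol from acetyl-CoA, which ATP citrate lyase cuts from citrate and acetyl-CoA carboxylase commits to synthesis. In the list of fatty acid synthesis, elongation and desaturation, 8 of 14 measured genes were at least 2-fold higher and 1 was lower, against 13.5% and 14.8% of all measured genes. Both subunits of ATP citrate lyase were among the most expressed genes of the treated cells. NCU06783 had 3814 FPKM with staurosporine, against 1237 FPKM with DMSO, and NCU06785 had 3446 FPKM with staurosporine, against 774 FPKM with DMSO. Acetyl-CoA carboxylase (NCU08535) had 598 FPKM with staurosporine, against 115 FPKM with DMSO, a change of 2.37. The fatty acid synthase subunits, which chain the acetyl units, stood close to each other. The alpha subunit (*cel-1*) had 407 FPKM with staurosporine, against 196 FPKM with DMSO, and the beta subunit (*cel-2*) had 380.3 FPKM with staurosporine, against 177 FPKM with DMSO. A fatty acid elongase, NCU06694, had 528 FPKM with staurosporine, against 139 FPKM with DMSO. None of the 4 desaturases, which place double bonds, was at least 2-fold higher. The delta-12 desaturase NCU02209 had 709.6 FPKM with staurosporine, against 428 FPKM with DMSO, and acyl-CoA desaturase 1 had 1085 FPKM with staurosporine, against 1006 FPKM with DMSO. The D12/D15 desaturase NCU09497 was the 1 lower gene of the list, with 217 FPKM with staurosporine, against 544 FPKM with DMSO. The largest change of the list was that of a 3-ketoacyl-acyl carrier protein reductase (NCU09473), named for a reducing step of chain growth, with 291 FPKM with staurosporine, against 20.7 FPKM with DMSO (change 3.75). In Δ*czt-1*, where 18.5% of measured genes were at least 2-fold higher and 19.9% lower, the list had a median of -0.98, with 1 gene higher and 7 lower. The 1 higher gene was NCU09473, with 2117 FPKM with staurosporine, against 18.6 FPKM with DMSO.

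In the list of fatty acid oxidation, 13 of 30 measured genes were at least 2-fold higher and 2 were lower, and 27 lay above 0. An acyl-CoA synthetase (NCU03929), which activates fatty acids, had 170.3 FPKM with staurosporine, against 18.8 FPKM with DMSO. The acyl-CoA dehydrogenase *acd-1*, which takes the first oxidative step, had 176 FPKM with staurosporine, against 29.3 FPKM with DMSO, and its relative *acd-2* had 185 FPKM with staurosporine, against 39.2 FPKM with DMSO. The acyl-CoA dehydrogenase NCU09885 went the other way, with 4.58 FPKM with staurosporine, against 10.2 FPKM with DMSO, as did an enoyl-CoA hydratase (NCU09058), which adds water in the next step, with 20.3 FPKM with staurosporine, against 63.5 FPKM with DMSO. The acetyl-CoA made by this pathway enters the glyoxylate cycle, which lets cells build sugars from acetate. Isocitrate lyase (*acu-3*) had 364 FPKM with staurosporine, against 46.6 FPKM with DMSO. Malate synthase (*acu-9*), the second enzyme of the cycle, had 396 FPKM with staurosporine, against 77.5 FPKM with DMSO. The carrier that exchanges succinate for fumarate across the mitochondrial membrane, NCU08561, had 83.5 FPKM with staurosporine, against 4.49 FPKM with DMSO (change 3.94). The gluconeogenic enzymes split: fructose-1,6-bisphosphatase (*fbp-1*) had 21.5 FPKM with staurosporine, against 8.19 FPKM with DMSO, but phosphoenolpyruvate carboxykinase (*acu-6*), which starts that route, had 2.55 FPKM with staurosporine, against 25.3 FPKM with DMSO. Peroxisomes house much of the oxidation, and of their 22 biogenesis genes 1 was at least 2-fold lower and 2 were higher, *pex11* (NCU04802, change 1.30) and the membrane protein gene NCU03556 (1.52). These shares (4.55% and 9.09%) were below the 14.8% and 13.5% of all measured genes. A lipase (NCU03639), which frees fatty acids from stored fat, had 267 FPKM with staurosporine, against 29.9 FPKM with DMSO.

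**Figure D3:**
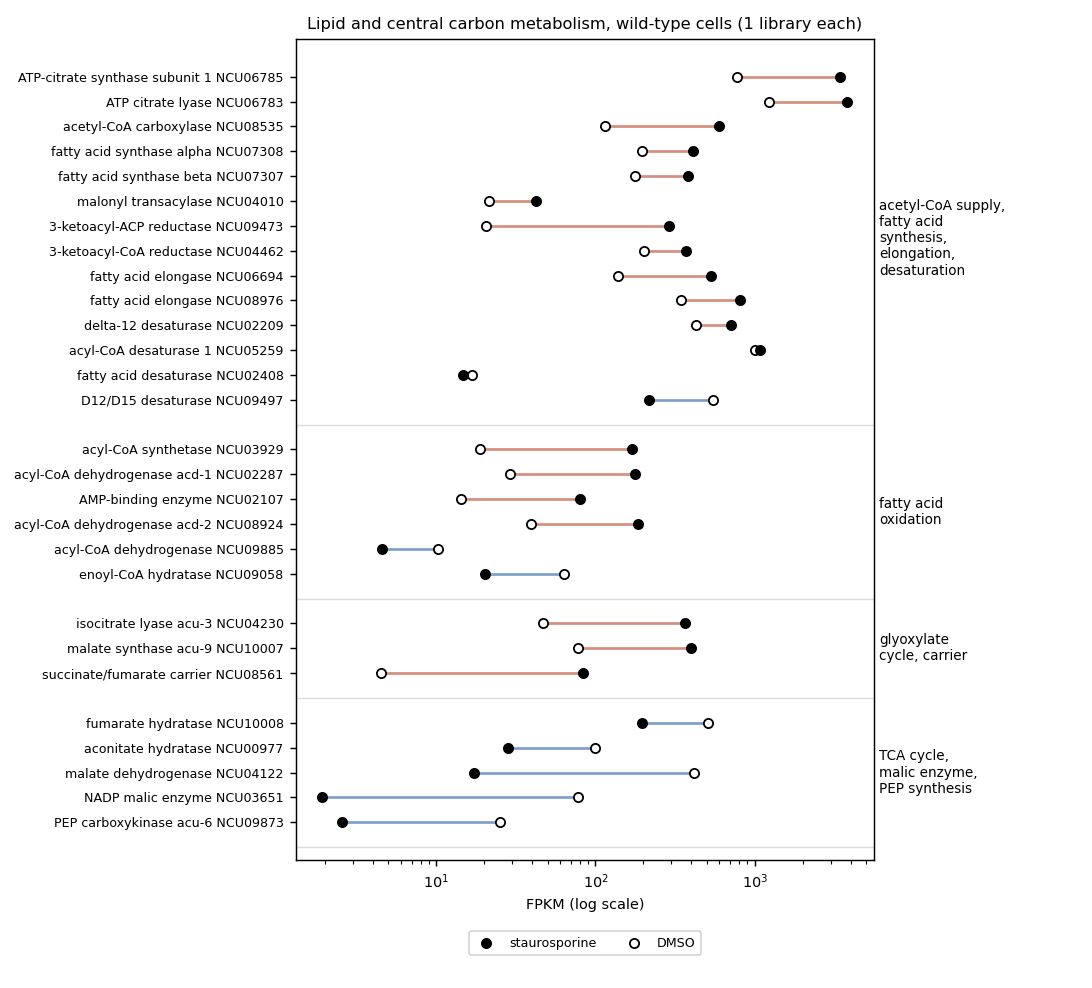
FPKM on a log scale for genes of fatty acid synthesis, fatty acid oxidation, the glyoxylate cycle and the TCA cycle with malic enzyme and phosphoenolpyruvate carboxykinase, in wild-type cells with staurosporine (filled circles) and DMSO (open circles), 1 library each. Red lines join pairs that were higher with staurosporine, such as isocitrate lyase at 364 against 46.6 FPKM, and blue lines pairs that were lower, such as the NADP-dependent malic enzyme at 1.93 against 77.9 FPKM.

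Membrane lipids moved less. Among the 35 genes of sterol synthesis and transport, 8 were at least 2-fold higher and 1 lower (median 0.44), against 13.5% and 14.8% of all measured genes. The lower gene, NCU02190, is described as an oxysterol binding protein and had 1.21 FPKM with staurosporine, against 5.86 FPKM with DMSO (change -1.63). It lies below the level required for naming and was added after its values were seen. The genes named by the rule were carriers and sensors rather than enzymes of ergosterol synthesis, namely an INSIG domain protein (NCU07869, change 1.56), a second oxysterol binding protein (NCU04610, 1.41) and Niemann-Pick C1 (NCU04090, 1.34), which in animals moves sterol out of lysosomes, besides a sterol glycosyltransferase (NCU09301, 1.42). Among the 56 genes of sphingolipid and phospholipid metabolism, 13 were at least 2-fold higher and 2 lower. Phosphatidylethanolamine N-methyltransferase (*chol-1*), which makes phosphatidylcholine, had 312 FPKM with staurosporine, against 118 FPKM with DMSO, whereas phosphatidylserine synthase (NCU02381) had 38.5 FPKM with staurosporine, against 112 FPKM with DMSO.

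The tricarboxylic acid (TCA) cycle oxidises acetyl-CoA in mitochondria, and its list also holds bordering enzymes such as pyruvate dehydrogenase and the malic enzyme. None of its 25 genes was at least 2-fold higher, and 4 (16%) were lower, close to the 14.8% of all measured genes. The malic enzyme and malate dehydrogenase above were among the 4. Aconitate hydratase NCU00977 had 28.3 FPKM with staurosporine, against 99.5 FPKM with DMSO, and fumarate hydratase NCU10008 had 197 FPKM with staurosporine, against 506 FPKM with DMSO. The median of this list was -0.52, and 23 of the 25 genes lay below the median gene. Glycolysis was centred near 0 (median -0.02), with 6 of 25 genes at least 2-fold higher, led by the glucokinase NCU00575, which phosphorylates glucose on entry and had 495 FPKM with staurosporine, against 119 FPKM with DMSO. No gene of the pentose phosphate pathway, among 8, differed 2-fold. In the list of fermentation, acetate and propionate use, 9 of 19 genes were at least 2-fold higher, the glyoxylate cycle genes above among them, and 4 were lower. The lower ones were pyruvate decarboxylase, *adh-1* and the lactate dehydrogenases NCU00720 (change -1.38) and NCU06441 (-1.23). Alcohol dehydrogenase I (*adh-1*) had 10.1 FPKM with staurosporine, against 41.8 FPKM with DMSO, while in Δ*czt-1* it had 48.2 FPKM with staurosporine, against 3.41 FPKM with DMSO. A second pyruvate decarboxylase, NCU02397, was higher in the wild type, with 42.5 FPKM with staurosporine, against 11.1 FPKM with DMSO. Storage carbohydrate genes moved both ways. Glycogen synthase (*gsy-1*) had 265 FPKM with staurosporine, against 106 FPKM with DMSO, and glycogen phosphorylase, which breaks glycogen down, had 25.3 FPKM with staurosporine, against 53.4 FPKM with DMSO. Sorbitol dehydrogenase, which turns a sugar alcohol into fructose, had 16.6 FPKM with staurosporine, against 2.38 FPKM with DMSO. The glycerol genes parted, since dihydroxyacetone kinase was among the largest rises and glycerol kinase, with 4.21 FPKM with staurosporine, against 46.7 FPKM with DMSO, among the largest falls.

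Mitochondrial protein import had the lowest median of the 56 lists. Most mitochondrial proteins are made in the cytosol and threaded through the TOM and TIM translocases, after which chaperones fold them. Of 31 measured genes for import and folding, 23 were at least 2-fold lower and none was higher, and all 31 lay below the median gene. As deposited, 30 of them lay below 0, and 23 did so after rescaling to an equal sum. After the rescaling 5 stayed at least 2-fold lower, a larger share than the 4.82% of all measured genes. The small outer-membrane subunit *tom5* had 35.6 FPKM with staurosporine, against 193 FPKM with DMSO. The inner-membrane translocase subunit *tim54* had 10.5 FPKM with staurosporine, against 53.4 FPKM with DMSO, and the intermembrane-space chaperone *tim8* had 62.4 FPKM with staurosporine, against 272 FPKM with DMSO. Their ranks within the list were the first, the second and the fourth by the size of the fall. Among the 32 mitochondrial carriers, which pass metabolites through the inner membrane, 11 were at least 2-fold lower and 2 higher. The phosphate carrier NCU05390, which supplies ATP synthesis, had 337 FPKM with staurosporine, against 1837 FPKM with DMSO. The succinate/fumarate carrier described above and an ADP,ATP carrier (NCU03989, 37.5 FPKM with staurosporine and 16.9 FPKM with DMSO) were the exceptions.

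Among functions of gene expression outside the ribosome, translation factors had a larger share of lower genes than the 14.8% of all measured genes. The others did not, apart from mRNA decay with 4 of 22. The largest fall of the 4 was that of NCU08663 (change -1.77), described as nonsense-mediated mRNA decay protein 3. That gene was listed by those words alone, and its role was not checked. Of 43 translation initiation, elongation and release factors, 18 were at least 2-fold lower and none was higher, and 42 lay below the median gene. Elongation factor 3, a fungus-specific ATPase of the ribosome, had 10.9 FPKM with staurosporine, against 64.9 FPKM with DMSO, and the RNA helicase eIF4A, which unwinds mRNA for initiation, had 567 FPKM with staurosporine, against 1897 FPKM with DMSO. After that rescaling, 2 of the 43 stayed at least 2-fold lower, close to the 4.82% of all measured genes, and 26 lay below 0. Of 47 genes for RNA polymerases and general transcription, 6 were at least 2-fold lower, and the 4 with the largest change were subunits of RNA polymerase I or subunits it shares with other polymerases. The largest of the RNA polymerase I subunits, NCU01638, had 9.89 FPKM with staurosporine, against 32.4 FPKM with DMSO. Pre-mRNA splicing genes differed little, with 5 of 72 at least 2-fold lower and none higher (median -0.20). The karyopherin Kap123, which in yeast imports ribosomal proteins into the nucleus, was the 1 gene of 17 in nuclear transport to differ, with 24.8 FPKM with staurosporine, against 77.4 FPKM with DMSO. In mRNA decay the 5' exonuclease Kem1 had 66.8 FPKM with staurosporine, against 29.4 FPKM with DMSO, whereas the exosome nuclease Rrp6, which works from the 3' end in the nucleus, had 11.2 FPKM with staurosporine, against 29.5 FPKM with DMSO. Another exosome gene, RRP41, was lower as well, with 37.7 FPKM with staurosporine, against 77.9 FPKM with DMSO.

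Of 78 amino acid biosynthesis genes, 13 were at least 2-fold lower and 5 higher (median -0.41). The share of lower genes was close to the 14.8% of all measured genes. After rescaling to an equal sum, 4 stayed at least 2-fold lower, close to the 4.82% of all measured genes. The aromatic pathway begins with the aldolase *aro-6*, which had 90.1 FPKM with staurosporine, against 397 FPKM with DMSO. Homoaconitase (*lys-6*) of the lysine pathway had 48.0 FPKM with staurosporine, against 185 FPKM with DMSO, and homoisocitrate dehydrogenase (*lys-7*) had 103 FPKM with staurosporine, against 393 FPKM with DMSO. Among the 5 higher genes were 2 of arginine synthesis. The large subunit of carbamoyl-phosphate synthase, *arg-3*, had 710.0 FPKM with staurosporine, against 158 FPKM with DMSO, and argininosuccinate lyase, *arg-10*, had 340.5 FPKM with staurosporine, against 169.6 FPKM with DMSO. In amino acid breakdown, 14 of 42 genes were at least 2-fold higher and 6 lower, a wide spread around a median of 0.17. An amine oxidase (NCU08925), which removes amino groups from amines, had 34.9 FPKM with staurosporine, against 3.05 FPKM with DMSO. The L-amino acid oxidase gene *lao* had 216 FPKM with staurosporine, against 46.6 FPKM with DMSO, and methylmalonate-semialdehyde dehydrogenase, of valine breakdown, had 66.3 FPKM with staurosporine, against 14.1 FPKM with DMSO. Of 42 nucleotide synthesis genes, 12 were at least 2-fold lower, and 2 after the rescaling, when 4.82% of all measured genes were. The gene at the head of purine synthesis, amidophosphoribosyltransferase (*ad-7*), had 20.8 FPKM with staurosporine, against 77.2 FPKM with DMSO, and adenylosuccinate lyase (*ad-4*) had 128 FPKM with staurosporine, against 488 FPKM with DMSO. The single gene above 2-fold was uracil phosphoribosyltransferase, a salvage enzyme, with 61.1 FPKM with staurosporine, against 15.8 FPKM with DMSO.

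Over the list of phosphate, sulfate and nitrogen assimilation, 9 of 35 genes were at least 2-fold lower and 6 higher. Sulfate enters through permeases and is activated by sulfate adenylyltransferase before its reduction to sulfide. Sulfate permease II (*cys-14*) had 9.83 FPKM with staurosporine, against 58.5 FPKM with DMSO, and a further sulfate transporter (NCU02632) had 5.07 FPKM with staurosporine, against 27.7 FPKM with DMSO. The adenylyltransferase *cys-11* had 104 FPKM with staurosporine, against 656 FPKM with DMSO. Siroheme synthase, which makes the cofactor of sulfite and nitrite reductases, had 4.53 FPKM with staurosporine, against 29.3 FPKM with DMSO. Not all nitrogen genes moved in this direction. Uricase, of purine breakdown, had 12.2 FPKM with staurosporine, against 59.4 FPKM with DMSO, while xanthine dehydrogenase (*xdh-1*), the step before it, had 13.6 FPKM with staurosporine, against 4.67 FPKM with DMSO, and the amide hydrolase formamidase had 314 FPKM with staurosporine, against 117 FPKM with DMSO. In the list of iron, copper and heme, 13 of 41 genes were at least 2-fold lower and 2 higher. The plasma membrane iron permease had 3.99 FPKM with staurosporine, against 22.1 FPKM with DMSO, and 5-aminolevulinate synthase, the first step of heme synthesis, had 19.9 FPKM with staurosporine, against 64.6 FPKM with DMSO. The 2 higher genes were a cation diffusion facilitator (NCU06699), a metal carrier, with 134 FPKM with staurosporine, against 39.4 FPKM with DMSO, and the copper transporter *tcu-3*, with 29.2 FPKM with staurosporine, against 8.45 FPKM with DMSO.

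The enzymes that remove reactive oxygen moved in opposite directions. Catalases split hydrogen peroxide, and *N. crassa* carries forms that belong to different stages, *cat-1* being the enzyme of conidia and *cat-3* that of growing hyphae. *cat-1* had 42.6 FPKM with staurosporine, against 3.29 FPKM with DMSO (change 3.35), whereas *cat-3* had 2.42 FPKM with staurosporine, against 42.7 FPKM with DMSO (change -3.67). The fall of flavohemoglobin NCU10051 was accompanied by that of its relative NCU02096, with 1.56 FPKM with staurosporine, against 15.8 FPKM with DMSO. The bifunctional peroxidase *cat-2* was low in both libraries, with 5.53 FPKM with staurosporine, against 1.17 FPKM with DMSO. Superoxide dismutases, which turn superoxide into peroxide, were on the lower side. The copper-zinc enzyme *sod-1* had 1042 FPKM with staurosporine, against 2194 FPKM with DMSO, the Fe superoxide dismutase NCU07386 had 65.4 FPKM with staurosporine, against 295 FPKM with DMSO, and *sod-2* had 27.1 FPKM with staurosporine, against 32.6 FPKM with DMSO. Of the list, 6 of the 13 genes were at least 2-fold lower and 2 higher, and 11 lay below the median gene. In the glutathione and thioredoxin system, 8 of 33 genes were higher and 5 lower. The enzyme that limits glutathione synthesis, glutamate-cysteine ligase (NCU01157), had 10.8 FPKM with staurosporine, against 68.2 FPKM with DMSO. Thioredoxin reductase (*cys-9*), which recharges thioredoxin, had 45.7 FPKM with staurosporine, against 159.8 FPKM with DMSO. The transferases that attach glutathione to foreign compounds were higher, Gst3 (NCU04368) with 51.5 FPKM with staurosporine, against 11.6 FPKM with DMSO and *gst-1* with 111 FPKM with staurosporine, against 45.5 FPKM with DMSO. Aldehyde dehydrogenases and the broad group of aldo-keto and short-chain oxidoreductases held many higher genes, 4 of 9 and 25 of 82, with none and 10 lower.

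**Figure D4:**
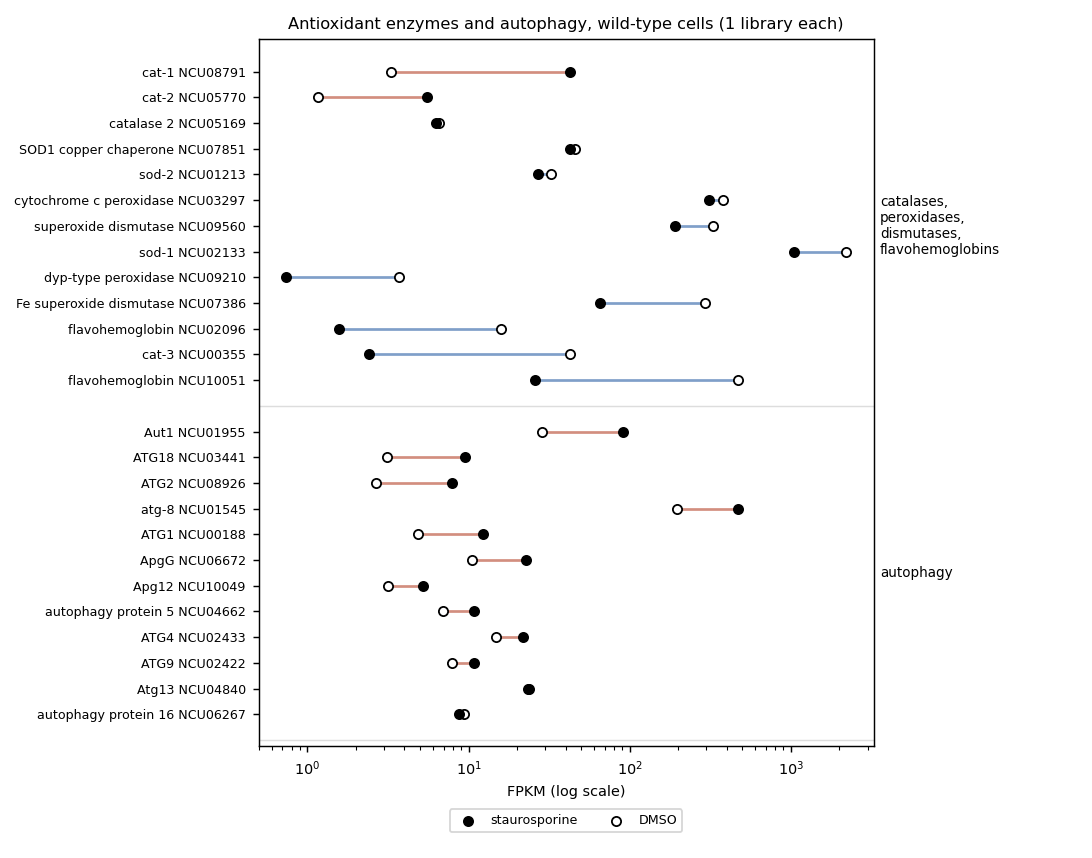
FPKM on a log scale of the 13 catalase, peroxidase, flavohemoglobin and dismutase genes and of the 12 autophagy genes in wild-type cells with staurosporine (filled circles) and DMSO (open circles), 1 library each. Blue lines (lower with staurosporine) prevail in the upper group apart from *cat-1*, at 42.6 against 3.29 FPKM, and *cat-2*, and red lines (higher) prevail in the autophagy group.

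Among the lists of protein turnover, autophagy had the largest share of higher genes. Autophagy delivers cell content to the vacuole, and 6 of its 12 measured genes were at least 2-fold higher with none lower. The ubiquitin-like protein *atg-8*, which coats the growing membrane, had 470.3 FPKM with staurosporine, against 196 FPKM with DMSO. Aut1, the counterpart of the yeast enzyme that attaches it to lipid, had 91.5 FPKM with staurosporine, against 28.4 FPKM with DMSO. The kinase that starts the process, ATG1, had 12.3 FPKM with staurosporine, against 4.87 FPKM with DMSO. The rest ranged from -0.08 for autophagy protein 16 to 1.35 for ATG18. Proteasome genes were narrowly grouped, with 31 of 33 above 0, a median of 0.44 and only an activator subunit (NCU05620, 50.8 FPKM with staurosporine and 17.9 FPKM with DMSO) past 2-fold. Ubiquitin conjugation and removal had 15 of 80 genes at least 2-fold higher and 3 lower, against 13.5% and 14.8% of all measured genes, among the higher ones the ubiquitin-activating enzyme E1 (NCU04370), with 157 FPKM with staurosporine, against 55.7 FPKM with DMSO. Of 55 proteases and peptidases, 12 were higher and 5 lower, and serine protease p2 had 1097 FPKM with staurosporine, against 234 FPKM with DMSO. The vacuolar ATPase, which acidifies the vacuole, had none of its 14 genes past 2-fold, from -0.35 to 0.64. Cytosolic chaperones were mixed, with 10 of 56 lower (17.9%) and 5 higher (8.93%). An Hsp70 gene, *hsp70-2*, had 600.3 FPKM with staurosporine, against 2940.1 FPKM with DMSO, while the kinase co-chaperone CDC37 had 106 FPKM with staurosporine, against 32.5 FPKM with DMSO.

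Transporters other than *abc3* were also higher in part. Among 30 ABC transporters and drug efflux pumps, 9 were at least 2-fold higher and 1 lower. After *abc3* the next were an MFS multidrug transporter (NCU05207), with 14.7 FPKM with staurosporine, against 2.06 FPKM with DMSO, and the ABC transporter NCU02544, with 47.6 FPKM with staurosporine, against 8.62 FPKM with DMSO, far below *abc3* in level. Sugar transporters had 10 of 27 genes higher and 1 lower. The high affinity glucose transporter *ght1* (NCU05627) had 142 FPKM with staurosporine, against 41.5 FPKM with DMSO, whereas the monosaccharide transporter NCU04537 had 25.4 FPKM with staurosporine, against 67.0 FPKM with DMSO. Amino acid permeases parted, with 6 of 25 higher and 3 lower. The neutral amino acid permease *mtr* had 92.8 FPKM with staurosporine, against 289 FPKM with DMSO, against the direction of the permease NCU05776, which had 295 FPKM with staurosporine, against 99.5 FPKM with DMSO. Among the major facilitator transporters of other or unstated substrate, 4 of 30 were higher (13.3%) and 3 lower (10%), against 13.5% and 14.8% of all measured genes. The most expressed of the higher ones, NCU04656, had 619.8 FPKM with staurosporine, against 128 FPKM with DMSO.

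Secreted enzymes for plant cell walls, which *N. crassa* makes to feed on dead plant matter, had 18 of 51 measured genes at least 2-fold higher and 2 lower, although 27 of the 78 listed genes did not reach 1 FPKM in either library. The glucoamylase *gla-1*, which digests starch, had 52.2 FPKM with staurosporine, against 6.33 FPKM with DMSO, and the beta-glucosidase *gh1-1*, which finishes cellulose breakdown, had 25.3 FPKM with staurosporine, against 2.40 FPKM with DMSO. In the fungal wall list, 11 of 67 genes were higher and 8 lower. The glucan-remodeling transferase *gel-4* had 825 FPKM with staurosporine, against 251 FPKM with DMSO, and the glucanase *gh16-1* had 288 FPKM with staurosporine, against 80.0 FPKM with DMSO. Besides *acw-10*, the wall proteins *ncw-1* and *acw-12* were lower. *ncw-1* had 2.90 FPKM with staurosporine, against 27.1 FPKM with DMSO, and *acw-12* had 4.10 FPKM with staurosporine, against 25.1 FPKM with DMSO.

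Calcium genes were the signaling group with the largest share of members past 2-fold, 12 of 30 higher and none lower. The plasma membrane calcium pump *nca-2*, which expels calcium from the cell, had 117 FPKM with staurosporine, against 30.5 FPKM with DMSO. A calcineurin binding protein (NCU01504), a regulator of the calcium-dependent phosphatase, had 490.5 FPKM with staurosporine, against 72.6 FPKM with DMSO. Annexin XIV, a calcium-dependent membrane binder, had 50.2 FPKM with staurosporine, against 9.88 FPKM with DMSO. G protein, cAMP and phosphoinositide genes had 8 of 33 higher and 1 lower, among them the G alpha subunit *gna-2* with 34.2 FPKM with staurosporine, against 13.2 FPKM with DMSO. The single lower one, *cpc-2*, a ribosome-bound WD protein, had 1236 FPKM with staurosporine, against 4605 FPKM with DMSO. Protein kinases are the direct targets of staurosporine. Of 75 outside the named cascades 12 (16%) were higher and 3 (4%) lower, against 13.5% and 14.8% of all measured genes. The nutrient-sensing eIF2 kinase *cpc-3* had 29.4 FPKM with staurosporine, against 9.42 FPKM with DMSO, the IRE1-type kinase *stk-14* had 29.5 FPKM with staurosporine, against 10.2 FPKM with DMSO, and the RIO1 and RIO2 kinases of ribosome assembly were lower, at changes of -1.56 and -1.57. MAP kinase and two-component genes held none higher and 3 of 22 lower (13.6%), close to the 14.8% of all measured genes. The protein phosphatases, their counterparts, held 4 of 37 higher (10.8%) and 1 lower (2.70%), both below the shares of all measured genes. The phosphotyrosine phosphatase NCU09841 had 58.0 FPKM with staurosporine, against 216 FPKM with DMSO. The osmosensing MAP kinase *os-2* had 61.8 FPKM with staurosporine, against 133 FPKM with DMSO, and the two-component protein *hcp-1* had 12.5 FPKM with staurosporine, against 47.0 FPKM with DMSO.

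The list of cell death effectors also holds NADPH oxidase genes. In it 1 of 8 genes was at least 2-fold higher and 2 were lower, against 13.5% and 14.8% of all measured genes. Both lower genes were of the NADPH oxidase kind. A Bax inhibitor family gene, NCU02463, had 66.8 FPKM with staurosporine, against 21.7 FPKM with DMSO. NADPH oxidase 1 (*nox-1*), which makes superoxide, had 37.1 FPKM with staurosporine, against 129 FPKM with DMSO, and its regulator *nor-1* had 24.0 FPKM with staurosporine, against 65.4 FPKM with DMSO. NADPH oxidase 2 (*nox-2*) went the other way, with 27.0 FPKM with staurosporine, against 14.9 FPKM with DMSO (change 0.82). NCU12058 (*amid-2*), described only as an oxidoreductase and so not in this list of words, had 10.04 FPKM with staurosporine, against 1.73 FPKM with DMSO. Both metacaspases, the caspase relatives of fungi, differed by less than 1.5-fold, with log2 changes of 0.45 for metacaspase-1B and 0.51 for metacaspase-1A. The heterokaryon incompatibility list, of genes that kill cells after unlike strains fuse, had 6 measured genes and all under 15 FPKM. The gene *tol* had 1.65 FPKM with staurosporine, against 4.82 FPKM with DMSO, *pin-c* had 0.0407 FPKM with staurosporine, against 2.65 FPKM with DMSO, and the NACHT domain gene NCU11555 had 4.66 FPKM with staurosporine, against 0.0974 FPKM with DMSO.

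Small GTPases had 4 of 56 genes higher (7.14%) and 3 lower (5.36%), both below the 13.5% and 14.8% of all measured genes. Cell cycle genes and DNA replication and repair genes were below both shares too. The Rap-type GTPase *krev-1* had 27.6 FPKM with staurosporine, against 76.2 FPKM with DMSO, while a prenylated Rab acceptor (NCU11237) of membrane traffic had 196 FPKM with staurosporine, against 42.0 FPKM with DMSO. Cell cycle genes had 5 of 55 higher and 3 lower, among the higher ones the mitotic kinase *nim-1* with 13.8 FPKM with staurosporine, against 5.79 FPKM with DMSO. DNA replication and repair genes had 5 of 89 higher and 4 lower, among the lower ones the replication clamp PCNA (*pcn*) with 91.1 FPKM with staurosporine, against 199.6 FPKM with DMSO. Within cytoskeletal genes, 10 of 69 were higher and 2 lower, and the motor myosin-2 had 84.5 FPKM with staurosporine, against 30.2 FPKM with DMSO. Chromatin genes had 10 of 63 higher and 2 lower. The histone acetyltransferase *ngf-1*, of the GCN5 type, had 11.4 FPKM with staurosporine, against 2.45 FPKM with DMSO, and the linker histone *hH1* had 239.7 FPKM with staurosporine, against 694 FPKM with DMSO. The histone chaperone gene *chz-1* (NCU01740) had 377 FPKM with staurosporine, against 150.4 FPKM with DMSO.

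Transcription factors had 22 of 112 measured genes at least 2-fold higher and 3 lower, with *czt-1* first. A bZIP factor (NCU00223) had 61.7 FPKM with staurosporine, against 12.8 FPKM with DMSO, and in Δ*czt-1* it had 13.5 FPKM with staurosporine and 23.1 FPKM with DMSO. The acetate-use activator *acu-15* had 43.6 FPKM with staurosporine, against 10.6 FPKM with DMSO. The 3 lower ones were a MADS-box factor (NCU02558, 12.3 FPKM with staurosporine and 29.6 FPKM with DMSO), *adv-1* (NCU07392, 38.8 FPKM with staurosporine and 88.3 FPKM with DMSO), needed for cell fusion and sexual development, and *rrg-2* (NCU02413, 16.2 FPKM with staurosporine and 35.8 FPKM with DMSO). Light and clock genes, read in cells kept in constant light, held 3 of 20 higher and 4 lower. The blue-light receptor *wc-1* had 19.8 FPKM with staurosporine, against 7.64 FPKM with DMSO. Products of light induction differed from *bli-3*, since phytoene synthase (*al-2*) of carotenoid synthesis had 9.09 FPKM with staurosporine, against 27.1 FPKM with DMSO and the photolyase *phr* had 5.02 FPKM with staurosporine, against 20.6 FPKM with DMSO. Conidiation genes had 7 of 15 higher and none lower, mostly at low levels. The regulator FlbC (NCU03184) had 52.6 FPKM with staurosporine, against 20.7 FPKM with DMSO, and *con-8* had 5.76 FPKM with staurosporine, against 1.13 FPKM with DMSO. Mating genes had 1 of 15 past 2-fold, the CaaX protease Ste24 with 264 FPKM with staurosporine, against 91.7 FPKM with DMSO.

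Genes that share a description did not always share a direction. Among genes with at least 10 FPKM in either library, 13 descriptions covered both a gene at least 2-fold higher and a gene at least 2-fold lower. Carbonic anhydrase, which interconverts carbon dioxide and bicarbonate, was among them. NCU04778 had 15.9 FPKM with staurosporine, against 2.02 FPKM with DMSO, while NCU05653 had 1.05 FPKM with staurosporine, against 14.9 FPKM with DMSO. The 2 genes described as chaperone dnaK, Hsp70-type chaperones, parted as well. NCU09485 had 117 FPKM with staurosporine, against 50.3 FPKM with DMSO, and NCU00692 had 48.5 FPKM with staurosporine, against 197 FPKM with DMSO. Under the general word oxidoreductase, 8 of 14 genes were higher and 1 was lower. The single lower one was NCU00520, with 19.0 FPKM with staurosporine, against 68.4 FPKM with DMSO. Among the rest, MFS transporters had 4 of 9 higher and 1 lower, and acyl-CoA dehydrogenases 3 of 4 and 1.

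Changed genes also occurred side by side in the NC12 gene order. A run of 5 neighbours at least 2-fold higher comprised NCU02478 to NCU02482. It holds alpha-1,3-glucan synthase (change 1.42), a glutamine synthetase (1.19), a short-chain dehydrogenase (1.22) and the pair of the methylcitrate cycle, which clears propionate, 2-methylisocitrate lyase (1.73) and 2-methylcitrate synthase (1.77). In all, 4 runs of at least 4 higher neighbours and 6 of at least 4 lower neighbours were present. Runs of 2 numbered 123 for higher and 121 for lower genes. Among all measured genes 13.5% were higher and 14.8% lower, and whether runs exceeded what these shares give was not tested. The runs of lower genes included the one around pyruvate decarboxylase, NCU02190 to NCU02194, and one from NCU07388 to NCU07393 that holds *adv-1* and the fusion gene *ham-9* (NCU07389, 34.1 FPKM with staurosporine and 81.5 FPKM with DMSO). The runs and the genes named in them were likewise picked out after their values were seen. Neighbours can share reads where transcripts overlap, and how such reads were assigned was not tested.

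Both strains were measured with and without the drug in separate libraries, and 7346 genes were measured in both. With staurosporine, 28.3% of the measured genes differed at least 2-fold in the wild type and 38.3% in Δ*czt-1*. Of the 992 of these genes at least 2-fold higher in the wild type, 514 (51.8%) were also at least 2-fold higher in Δ*czt-1*, where 18.5% of measured genes were, and 33 (3.33%) were at least 2-fold lower, where 19.9% were. Of the 1099 lower in the wild type, 766 (69.7%) were lower and 42 (3.82%) higher in Δ*czt-1*. The 514 shared genes made up 41.1% of those higher in Δ*czt-1*, and the 766 made up 49.9% of those lower there. As deposited, lists on opposite sides of 0 in the strains included fatty acid synthesis, as above. Others were sterol synthesis and transport (medians of 0.44 for the wild type and -0.36 for the deletion strain) and transcription factors (0.43 and -0.24). The FPKM of Δ*czt-1* summed to 550288 with staurosporine and to 877439 with DMSO. Its changes were not rescaled to an equal sum, so whether these lists stay on opposite sides of 0 was not tested. Mitochondrial import was lower in both, with medians of -1.52 in the wild type and -1.91 in Δ*czt-1*, and autophagy higher in both, with medians of 0.82 and 1.19. These differences between the strains have no replicate and were not tested.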

How the data were processed

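Poly(A) RNA was sequenced from 4 *N. crassa* cultures, namely both strains under both treatments. The submitters' processing notes name TopHat2 2.0.4, Cufflinks 2.0.2 and Cuffdiff, and a genome build was not stated there. The authors deposited FPKM, normalized for transcript length and library size, in 3 tables with a decimal comma, and the library shared by several tables had identical values in each. Of the 9691 rows, 66 join several loci. Columns with the authors' fold changes, test statistics, p-values and calls were not used. The status column marked the estimates of the profilin gene and its neighbour as failed, and neither is named here.

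Each change is log2(FPKM + 1) with staurosporine less that with DMSO, calculated with Python 3.11.15, numpy 2.4.6 and pandas 2.3.3, for rows reaching 1 FPKM in a wild-type library, and counted at 2-fold. No test was possible with 1 library per condition. The members and lists were chosen with earlier results of these data known. Named genes were *czt-1*, *abc3*, the 15 largest rises and falls with a specific description and at least 10 FPKM in either library, up to 4 members per direction of each list at those limits, all members of lists with at most 15 measured genes, and genes of 1 description that moved in opposite directions. As alternatives, the pseudocount was set to 0.1 or 5, the filter was dropped or raised to 10 FPKM, and the others were scaling to the same FPKM sum, centring on the median gene, thresholds of 1.5-fold and 4-fold, and removal of joined rows. Symbols and gene order came from RefSeq's NC12 annotation, which matched 9141 row names. Promoter motifs were not analysed here. The formula for the change was run on simulated data with large planted changes in genes of at least 10 FPKM with DMSO. Their recovery was assured by the sizes planted. Changes near 2-fold, weakly expressed genes and unequal depth were not covered.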

Additional observations from a re-analysis of the deposited data

Results flagged for a closer look

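Some named genes were at least 2-fold higher in one strain and at least 2-fold lower in the other, a difference that was not tested, since each strain had 1 library per condition. Of these, genes of lipid synthesis were higher with staurosporine in the wild type and lower in Δ*czt-1*: the fatty acid synthase subunits NCU07308 (1.05 in the wild type against -1.08 in the deletion strain) and NCU07307 (1.10, -1.08), the elongases NCU06694 (1.92, -1.46) and NCU08976 (1.23, -1.27), ATP citrate lyase NCU06783 (1.62, -1.04) and the methyltransferase *chol-1* NCU08045 (1.40, -1.45). Of the same list, the reductase NCU09473 was higher in both (3.75, 6.76). The pattern of higher in the wild type and lower in the deletion strain was also read for carbamoyl-phosphate synthase *arg-3* (2.16, -1.39), the amino acid permease NCU05776 (1.56, -2.24), the thioredoxin NCU03714 (1.83, -1.67), the carboxylesterase NCU10680 (1.84, -1.74), the aldehyde dehydrogenase NCU09648 (1.09, -2.34), the G alpha subunit *gna-2* (1.31, -1.08), *wc-1* (1.27, -1.43) and *ccg-8* (1.26, -1.99). The reverse, lower in the wild type and higher in Δ*czt-1*, was read for *adh-1* (-1.95, 3.48), uricase NCU07853 (-2.20, 2.25), L-lactate dehydrogenase NCU00720 (-1.38, 1.36), the cyclin NCU04847 (-1.24, 1.15) and glycogen phosphorylase NCU07027 (-1.05, 2.95). All these changes are those of the libraries as deposited. The Δ*czt-1* libraries were not rescaled to an equal FPKM sum, so whether the changes near -1 there stay past 2-fold was not tested.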

How the results depend on the processing

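The count of genes changed at least 2-fold was 2115. It was 1401 with a pseudocount of 5, 3786 with both libraries scaled to the same FPKM sum, 3867 at 1.5-fold and 468 at 4-fold. The 1007 higher genes became 536, 3426, 2092 and 190 in the same settings, and the 1108 lower genes became 360 after the scaling, 1775 at 1.5-fold and 278 at 4-fold. Centring on the median gene left 819 higher and 1249 lower genes. With a pseudocount of 5 the shares of changed genes were 38.3% higher and 61.7% lower. Of the 56 lists, 51 kept their side of the median gene under all 7 alternatives for lists. Centring could not change a side, since it shifts all genes alike, and no list held a joined row. In the main setting the lists that changed side lay from -0.14 (amino acid and peptide permeases) to 0.22 relative to the median gene. The latter was the heterokaryon incompatibility list, with 6 measured genes. Relative to the median gene, amino acid and peptide permeases moved to 0.034 with the filter at 10 FPKM, cytochrome P450 monooxygenases to -0.0054 with a pseudocount of 5, -0.38 with that filter and -0.046 after the scaling, heterokaryon incompatibility genes to -0.050 without a filter, amino acid breakdown to -0.12 with that filter, and protein phosphatases to 0.035 without a filter and 0.029 with that filter. All 326 named genes past 2-fold kept their direction under the 4 alternatives tried for genes. That outcome was fixed in advance, because a pseudocount cannot reverse a difference, and centring and scaling shift it by less than 2-fold. After the scaling, 240 stayed past 2-fold. No paired analysis was possible because each condition had 1 library. The depth was only estimated, and culture-to-culture variation was not measured.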
